A study of Mus musculus with 45 samples.

Results

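The genes described here belong to families of enzymes that add or remove methyl groups on histones, of histone deacetylases, and of Zbtb transcription factors. They were measured in NIH-3T3 cells, a line of mouse embryonic fibroblasts. Members were all genes whose symbol begins with Zbtb, Kdm, Kmt, Setd, Prdm, Ehmt, Suv or Hdac followed by a digit, read from probe sets annotated with exactly 1 symbol. This gave 95 genes of 13232 on the array: 37 Zbtb, 18 Kdm, 11 Hdac, 10 Prdm, 8 Kmt, 8 Setd and 2 Ehmt genes and 1 Suv gene. Of the 95, 94 are protein-coding, and the Zbtb symbols include Zbtb11os1, an RNA from the strand opposite Zbtb11. Each gene was read from the probe set with the highest mean over all 45 arrays, chosen among 202 probe sets.

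The study measured how fast transcripts are made and lost. Newly transcribed RNA, which carries the nucleoside label 4-thiouridine (4sU) and was separated through it, was taken after 15 min (500 µM, 3 arrays), 30 min (500 µM, 9 arrays) and 60 min (200 µM, 3 arrays), and from a further 60 min experiment labelled 2F (200 µM, 3 arrays). Pre-existing RNA, the unlabelled rest, was taken at 60 min (200 µM, 3 arrays). Total RNA was taken after 30 min of label (9 arrays), after 60 min of label in the first and the 2F experiment (3 arrays each), before actinomycin D, a blocker of transcription given at 5 µg/ml, and 1 h and 2 h into it (3 arrays each). All groups were the same line at passages 5 to 15, plated at 40% density 24 h earlier and given fresh medium at the start, and no label names a genetic change. The labels explain neither 2F nor the word mock, which stands in titles at 15 min and 60 min but in none at 30 min. No label says that replicates are separate cultures, so the spread behind p-values may be technical.

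Values are GCRMA intensities on a linear scale as the authors deposited them, and changes are log2 fold changes ± standard error (SE) from limma. Calls required a fold of 2 or more with p below 0.05 after Benjamini-Hochberg adjustment over every probe set tested, and only called changes are said to have risen or fallen. Probe sets with a mean log2 of at least 5, an intensity of 32, were tested. Of the 95 genes, 75 passed this in 1 or more of 13 comparisons and 20 in none. Those 20 were 9 Zbtb, 6 Prdm, 3 Hdac and 2 Kdm genes, among them Prdm1, Prdm16, Zbtb16 and Hdac9, and nothing is said of their turnover. A gene can pass through 1 group where it is bright, so counts below are over the genes tested and not over all members. Where the dimmer group averaged below 32, the change was also computed with intensities below 32 raised to 32, a setting added after the data were seen, and for genes given array by array that fold is given as a lower limit (at least). The first 60 min experiment was the least uniform: its arrays correlated with others of their group at a median r of 0.861 to 0.922 for newly transcribed and 0.904 to 0.947 for total RNA, and the median SD of members was 0.54 and 0.42 on the log2 scale, against 0.091 in total RNA of the 2F experiment. In newly transcribed RNA at 30 min, replicates 1, 4 and 7 stood apart, with a median r of 0.920 to 0.939 against 0.979 to 0.985 for the other 6. The 8 fibroblast markers measured, among them Vim and Col1a1, all had median intensities over 32. Of markers of epithelium, leukocytes, endothelium and muscle, 3, 1, 2 and 2 genes were measured and 0 had a median over 32.

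Histone methylation is set by writers, found among the Kmt, Setd, Prdm, Ehmt and Suv39h proteins, of which not every one is a writer. It is removed by erasers, the Kdm proteins, most of which carry a Jumonji domain. The effect of the mark depends on the lysine: some methylated lysines go with active genes and others with silent chromatin. Hdac proteins remove acetyl groups, mostly within corepressor complexes, and Zbtb proteins pair a BTB domain, which binds partner proteins including such complexes, with zinc fingers that bind DNA. Many regulators of transcription are encoded by short-lived transcripts, whereas enzymes of general use are often encoded by long-lived ones.

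After 2 h of blocked transcription, 21 of 61 members tested had fallen, 10 of them Zbtb genes, and 1 had risen, where 9.42% of all 15060 probe sets fell and 0.538% rose. The median log2 change was -0.64 for the members and 0.10 for all probe sets tested. By subfamily, 10 of 19 Zbtb, 4 of 8 Kmt, 3 of 7 Setd and 4 of 14 Kdm genes fell. None of 8 Hdac, 2 Prdm, 2 Ehmt and 1 Suv genes was called lower. At adjusted p below 0.05 whatever the size of the change, 32 members were lower, 52.5% of those tested, where 18.7% of all probe sets were. Of the 22 members called, 10 had 1 group averaging below 32, and 6 of these were still called with the raised values, which gave 18 lower and 0 higher. Of 8 genes called lower that had other tested probe sets, 3 had all and 4 had some of these called lower too, and 0 had an opposite call. No other tested probe set was called lower for Kdm6b, Kmt2c, Setd5 and Zbtb1. With the mean of a gene's probe sets fewer members were lower, as given in the last section. Medians were -1.13 for Kmt, -1.0 for Zbtb, -0.89 for Setd, -0.58 for Kdm and 0.28 for Hdac genes. Changes are relative to the other RNA on an array, and in bulk extracts fewer cells with a transcript and less of it per cell cannot be told apart. Calls in this comparison depend on scaling, since 5.4% of all calls were higher as deposited and 17.9% after quantile normalization.

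**Figure D1:**
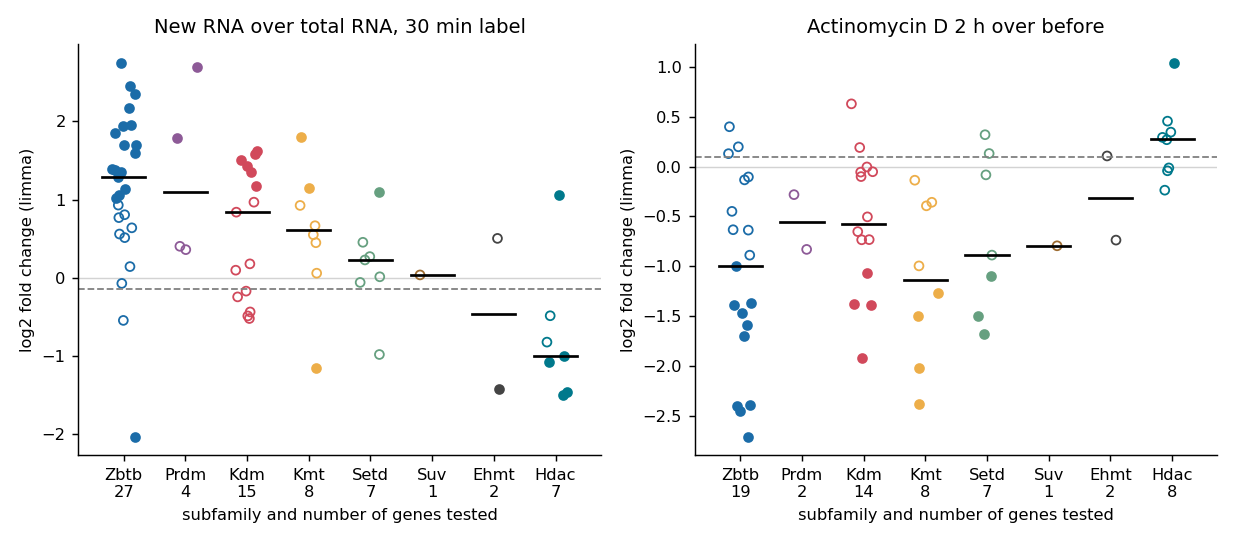
Log2 fold change of each tested member by subfamily, for newly transcribed over total RNA at 30 min (left) and actinomycin D 2 h over before (right). Each point is 1 gene, filled where called and open where not, black bars are subfamily medians, the dashed line is the median of all probe sets tested, and numbers under the names are genes tested. Zbtb genes lie highest on the left, with a median of 1.28, and Hdac genes lowest, with a median of -1.01.

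Among the Zbtb factors, Zbtb43 had intensities of 118, 109 and 102 before actinomycin D, 35.3, 40.8 and 37.2 at 1 h, and 13.4, 19.7 and 17.7 at 2 h. The 3 times did not overlap, and the change at 2 h was -2.71 ± 0.15 (adjusted p = 8.4e-07), at least 3.42-fold lower. Its change between 1 h and 2 h was not called with the raised values (-0.24). Zbtb1, a factor needed for lymphocyte development in mice, had 147, 170 and 182 before, 110, 119 and 111 at 1 h, and 28.9, 26.6 and 35.9 at 2 h. Its loss came mostly in the second hour, with -1.91 ± 0.14 between 1 h and 2 h (adjusted p = 1.5e-05) and -2.46 ± 0.14 over both hours (adjusted p = 8.8e-07), at least 4.98-fold lower. The other tested probe set of Zbtb1 was not called lower at 2 h. Zbtb11, which is needed for neutrophil development in zebrafish, had 203, 239 and 205 before, 102, 177 and 159 at 1 h, and 33.5, 51.8 and 39.0 at 2 h. All arrays at 2 h were below all at 1 h, and the change over both hours was -2.40 ± 0.22 (adjusted p = 2.4e-05). Zbtb6 fell by the same amount, -2.40 ± 0.19 (adjusted p = 8.4e-06), at least 2.56-fold, and its change in the second hour was not called with the raised values (-0.78). Zbtb33, the methyl-CpG binding repressor known as Kaiso, had 241, 369 and 319 before, 220, 314 and 340 at 1 h, and 94.6, 123 and 136 at 2 h. Arrays before and at 1 h overlapped, those at 2 h lay below both, and the change was -1.39 ± 0.21 (adjusted p = 8.7e-04). The other Zbtb losses were those of Zbtb25 (-1.70), Zbtb34 (-1.59), Zbtb14 (-1.47), Zbtb2 (-1.37) and Zbtb7a (-1.0). With the raised values Zbtb25 (-0.87) and Zbtb7a (-0.64) were not called. Zbtb7a, a repressor of fetal globin genes, was at the 2-fold threshold, its changes without 1 array at a time included values of -0.81 to -0.99 that missed it, and its adjusted p over all settings that lost the call was 0.017 to 0.072. Zbtb44 changed by -0.45 ± 0.13 and was not called, with 448, 516 and 484 before, 451, 462 and 535 at 1 h, and 299, 393 and 375 at 2 h.

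Of the Kmt and Setd genes, Kmt2e, an MLL family protein, had 727, 773 and 681 before actinomycin D, 277, 331 and 277 at 1 h, and 155, 131 and 132 at 2 h. It fell in both hours, by 1.30 ± 0.12 on the log2 scale in the first (adjusted p = 1.6e-04) and by 1.08 ± 0.12 in the second (adjusted p = 1.5e-04). Of its 3 other tested probe sets, 2 were also called lower at 2 h and the remaining one changed by -0.95. Kmt5b, which methylates histone tails in heterochromatin, had 86.0, 110 and 95.7 before, 66.9, 87.3 and 77.8 at 1 h, and 22.4, 24.9 and 24.5 at 2 h, a change of -2.02 ± 0.13 over both hours (adjusted p = 2.8e-06), at least 3.03-fold lower. Arrays before and at 1 h overlapped, and those at 2 h lay well below both. Kmt2b, an MLL family enzyme, had 180, 171 and 147 before, 55.4, 69.5 and 52.5 at 1 h, and 76.6, 42.8 and 60.9 at 2 h. It fell in the first hour (-1.5 ± 0.20, adjusted p = 9.7e-04), and its change in the second was -0.01. Setd2, which trimethylates histone tails along transcribed gene bodies, had 218, 223 and 206 before, 148, 151 and 147 at 1 h, and 67.5, 68.8 and 66.1 at 2 h. Its arrays were tight and ordered by time, with a change of -1.68 ± 0.09 at 2 h (adjusted p = 8.1e-07). Setd1b (-1.5), Kmt2c (-1.27) and Setd5 (-1.10) also fell. No other tested probe set of Kmt2c or Setd5 was called lower at 2 h. Setd5 was not called when 1 of 2 arrays was left out (-0.86 without 2 h replicate 2 and -0.82 without replicate 1 before treatment). Setd7, which methylates histone and other proteins, had 268, 359 and 347 before, 421, 332 and 351 at 1 h, and 309, 368 and 385 at 2 h. These groups overlapped, and its change at 2 h was 0.13 ± 0.15.

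Among the demethylases, Kdm6b, the inducible eraser of Polycomb methylation, had 250, 216 and 159 before actinomycin D, 94.5, 79.9 and 64.0 at 1 h, and 112, 70.1 and 60.6 at 2 h. It fell within the first hour (-1.38 ± 0.25, adjusted p = 0.0032) and changed by -0.01 in the second. The other tested probe set of Kdm6b was not called lower at 2 h. Kdm5b, which erases methylation of active promoters, had 195, 164 and 129 before, 137, 129 and 105 at 1 h, and 59.3, 31.9 and 39.7 at 2 h. Here the change came late, with -0.38 in the first hour and -1.54 ± 0.23 in the second (adjusted p = 8.4e-04). Kdm3a, which removes silencing methyl marks, had 458, 516 and 427 before, 356, 299 and 280 at 1 h, and 167, 189 and 183 at 2 h. Each time lay below the one before it without overlap, and the change at 2 h was -1.38 ± 0.13 (adjusted p = 2.3e-05). Kdm6a, the constitutive relative of Kdm6b, fell by 1.07 on the log2 scale, but its call was lost without any 1 of 4 arrays (adjusted p = 0.051 to 0.073) and with the raised values (-0.76). Kdm1a, a flavin-dependent demethylase of corepressor complexes, had 675, 859 and 706 before, 733, 714 and 636 at 1 h, and 693, 743 and 646 at 2 h. These arrays overlapped throughout, and the change at 2 h was -0.10 ± 0.12.

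Of the 8 Hdac genes tested, limma called none lower at 2 h. At an unadjusted p below 0.05 none was lower and 3 were higher, with all probe sets not counted at that level. Hdac1 had 1024, 1062 and 1000.5 before actinomycin D, 883, 1068 and 991 at 1 h, and 1229, 1365 and 1332 at 2 h. Its arrays at 2 h lay above all others, but the change of 0.35 ± 0.11 was below 2-fold. Hdac2 had 1823, 2463 and 2331 before, 2147, 1963 and 2134 at 1 h, and 1827, 2381 and 2341 at 2 h. These overlapped, with a change of -0.01 ± 0.15. Hdac8 was the 1 member called higher, with 25.0, 25.4 and 32.2 before, 77.9, 78.1 and 70.9 at 1 h, and 51.9, 58.1 and 59.3 at 2 h. The 3 times did not overlap, and the change was 1.47 ± 0.13 at 1 h (adjusted p = 1.2e-04) and 1.04 ± 0.13 at 2 h (adjusted p = 1.6e-04). Its arrays before treatment averaged below 32, and with the raised values it was at least 2.36-fold higher at 1 h and not called at 2 h (0.81). It was also not called at 2 h without replicate 1 or 2 of the arrays before treatment (0.98 and 0.99). Hdac5 had 63.3, 67.3 and 75.4 before, 39.3, 28.6 and 26.6 at 1 h, and 94.5, 72.2 and 82.6 at 2 h. Of the 3 times it was low at 1 h, with -1.14 ± 0.16 against before (adjusted p = 0.0012, just under 2-fold with the raised values) and 1.41 ± 0.16 between 1 h and 2 h (adjusted p = 2.0e-04). The pair of Ehmt enzymes, which place silencing methyl marks together, were not called. Ehmt2 had 1536, 1074 and 1144 before, 759, 705 and 724 at 1 h, and 1633, 1133 and 1272 at 2 h, low at 1 h and overlapping at the other times. Suv39h2, which places heterochromatin marks, had 67.2, 122 and 133 before, 131, 121 and 124 at 1 h, and 29.4, 91.1 and 78.2 at 2 h, with a change of -0.79 ± 0.39 at 2 h (adjusted p = 0.14).

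**Figure D2:**
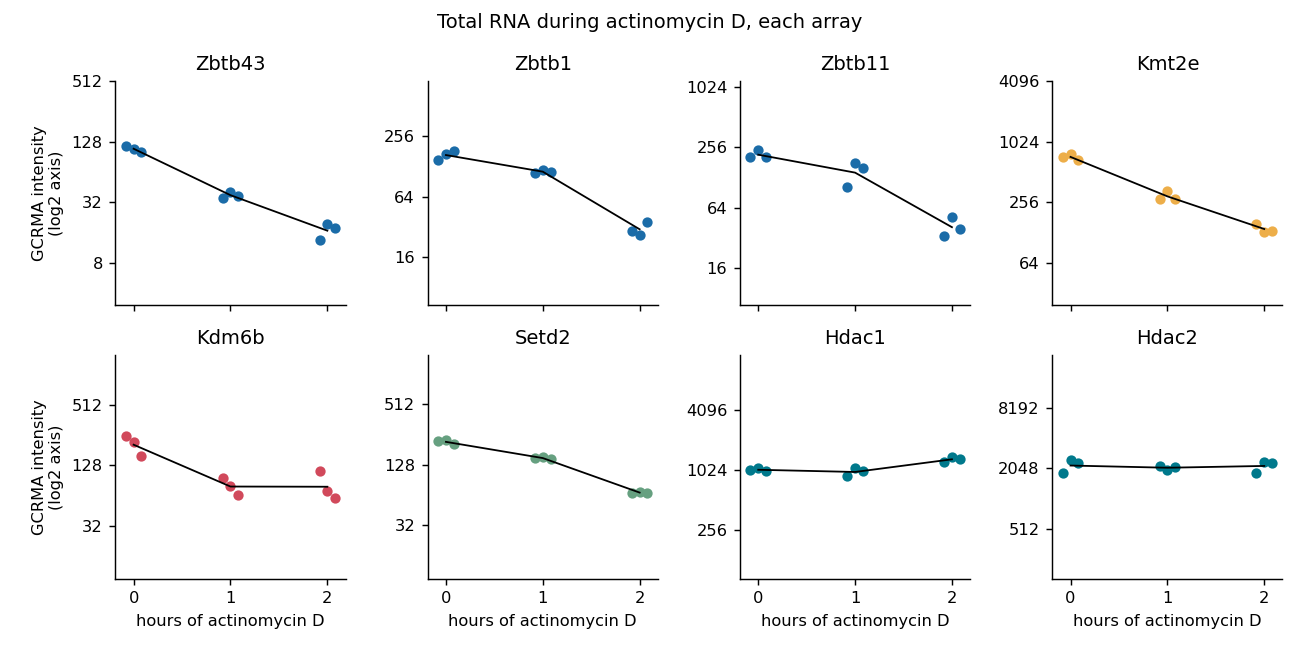
Intensity in total RNA of 8 members against hours of actinomycin D, on a log2 axis that spans the same number of doublings in each panel. Points are single arrays, 3 per time with 0 h being before the drug, and lines join geometric means. Zbtb43 and Kmt2e were lower at each time, Zbtb1 and Setd2 mainly in the second, Kdm6b only in the first, and Hdac1 and Hdac2 stayed level within 2-fold.

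At 1 h of actinomycin D, 7 of 61 members fell and 1 rose, where 3.58% of all probe sets fell and 2.57% rose. The members lower at 1 h were Zbtb43, Kmt2b, Kdm6b, Kdm2a, Kmt2e, Prdm2 and Hdac5. Prdm2, a writer of silencing marks with zinc fingers, had 98.7, 112 and 107 before, 42.9, 53.1 and 44.4 at 1 h, and 66.8, 67.2 and 46.9 at 2 h. Its arrays at 1 h and 2 h overlapped and lay below those before, with a change of -1.18 ± 0.16 at 1 h (adjusted p = 8.9e-04) and -0.83 ± 0.16 at 2 h, below 2-fold. Kdm2a, a demethylase that binds CpG islands, changed by -1.35 ± 0.30 at 1 h (adjusted p = 0.0082) and -0.65 ± 0.30 at 2 h. Between 1 h and 2 h, 10 of 61 members were lower and 1 higher, where 7.32% of all probe sets were lower and 2.28% higher. The share of all calls that were higher was 23.7% in that comparison as deposited and 38.2% after quantile normalization. Of those 10, 5 were Zbtb genes (Zbtb1, Zbtb6, Zbtb11, Zbtb33 and Zbtb43). Comparisons with the arrays before treatment share those arrays, and so are not independent of each other.

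At 30 min of label, newly transcribed RNA was higher than total RNA for 17 of 27 Zbtb and 6 of 15 Kdm transcripts, and lower for 4 of 7 Hdac transcripts. A transcript that turns over fast relative to its amount has a larger share in the newly made fraction. Over all 71 members tested, 29 were higher and 7 lower, where 23.7% of 16044 probe sets were higher and 25.6% lower. Of the 36 members called, 6 had 1 group averaging below 32, and 3 of these were still called with the raised values. Total RNA of Zbtb5, Zbtb10, Zbtb26 and Zbtb39 averaged below 32, so they were tested through their newly transcribed arrays. Median changes were 0.66 for the members and -0.14 for all probe sets. Of the Zbtb genes 1 was lower (median of all 27, 1.28), no Kdm gene was (0.84), and of 4 Prdm genes 2 were higher (1.10). Of 8 Kmt genes 2 were higher and 1 lower (0.61), and of 7 Setd genes 1 was higher (0.23). Hdac4 was higher against the 4 Hdac genes that were lower (median of the 7, -1.01), 1 of 2 Ehmt genes was lower (-0.46), and Suv39h2 changed by 0.03. Groups had no overlap between their 9 arrays each for 31 of the 36 members called (86.1%), and for 86.9% of all probe sets called, a share near that of the members. Over all probe sets tested, 42.9% were called without overlap, as were 43.7% of members. Of 17 genes called higher that had other tested probe sets, 8 had all and 11 had some of these called higher too, and 0 had an opposite call. No other tested probe set was called for Hdac4, Kdm5b, Kmt2a, Zbtb1, Zbtb7a and Zbtb41. Without newly transcribed replicates 1, 4 and 7, 27 of 69 members were higher and 7 lower, where 23.2% of all probe sets were higher and 26.4% lower. Of these, 25 were among the 29 higher and 5 among the 7 lower over all arrays, and Hdac1 (-0.95), Kmt2a (0.93), Kmt5c (-0.95), Zbtb4 (0.92) and Zbtb14 (0.91) were no longer called and Zbtb5 was too dim to test.

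Zbtb43 ranged from 409 to 631 in newly transcribed RNA at 30 min (median 553), against 48.3 to 148 in total RNA (median 95.7). All labelled-fraction arrays lay above all total RNA arrays, and the change was 2.45 ± 0.19 (adjusted p = 2.4e-10). Zbtb6 ranged from 280.0 to 373 in newly transcribed RNA (median 340), against 46.7 to 108 in total RNA (median 59.3), a change of 2.36 ± 0.15 (adjusted p = 1.6e-11). Zbtb7a ranged from 141 to 481 (median 357), against 34.0 to 111 in total RNA (median 66.4), a change of 2.17 ± 0.26 (adjusted p = 1.7e-07). These groups did not overlap either, although the weaker probe set of Zbtb7a gave only 0.72. Zbtb39 ranged from 142 to 319 in newly transcribed RNA (median 155), against 14.8 to 44.4 in total RNA (median 28.5). Its total RNA averaged below 32, so that it was tested through its newly transcribed arrays, and it was at least 5.3-fold higher (adjusted p = 8.0e-10). Prdm2 ranged from 724 to 896 in newly transcribed RNA (median 788), against 95.7 to 180.0 in total RNA (median 119). Both its groups were tight and far apart, with a change of 2.69 ± 0.12 (adjusted p = 1.4e-13), and its other tested probe set gave 2.26. Kmt5b (1.80), Prdm15 (1.79), Kdm3a (1.62), Kdm6b (1.59), Kdm6a (1.5), Kdm7a (1.43) and Setd2 (1.10) were also higher. Zbtb44 ranged from 375 to 682 in newly transcribed RNA (median 615), against 248 to 382 in total RNA (median 301). The groups overlapped, and the change of 0.93 ± 0.13 was below 2-fold, but was called without replicates 1, 4 and 7 (1.09).

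In the opposite direction, Ehmt2 ranged from 362 to 661 in newly transcribed RNA (median 419), against 444 to 2005 in total RNA (median 1693). The highest labelled array lay above the lowest total RNA array, and the change was -1.43 ± 0.30 (adjusted p = 1.9e-04). Hdac1 ranged from 390.1 to 517 in newly transcribed RNA (median 449), against 793 to 1038 in total RNA (median 921). Its groups did not overlap, and the change of -1.01 ± 0.08 (adjusted p = 4.1e-10) was close to the 2-fold threshold, which it missed with quantile normalization (-0.95), with an offset of 16 (-0.98) and without replicates 1, 4 and 7 (-0.95). Hdac3, the catalytic subunit of the NCoR and SMRT complexes, ranged from 132 to 174 in newly transcribed RNA (median 164), against 263 to 409 in total RNA (median 326), a change of -1.07 ± 0.10 (adjusted p = 6.7e-09) without overlap. Hdac6, a cytoplasmic tubulin deacetylase, and Hdac5 were lower by -1.46 and -1.5, and Zbtb12 by -2.04 ± 0.23 (adjusted p = 7.7e-08), at least 2.09-fold. Hdac2 ranged from 807 to 1702 (median 1621), against 1484 to 2057 in total RNA (median 1901), with overlap and a change of -0.49 ± 0.16. Hdac4, a deacetylase that shuttles between nucleus and cytoplasm, was the 1 Hdac gene that was higher (1.06 ± 0.12, adjusted p = 6.7e-08), with 110 to 135 (median 117), against 42.5 to 72.2 in total RNA (median 60.5). Kdm1a ranged from 572 to 722 (median 646), against 702 to 920.3 in total RNA (median 750.3), a change of -0.25 ± 0.08. Setd7 ranged from 368 to 501 (median 456), against 283 to 452 in total RNA (median 419), a change of 0.23 ± 0.11. Kmt2e ranged from 947 to 1476 (median 1035), against 640.2 to 899 in total RNA (median 741), above total RNA in every array but by only 0.55 ± 0.10.

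The promoters of 2 genes with high enrichment and of 1 with low enrichment are shown, 250 bases up to the start of transcription, from RefSeq on build GRCm38.p6 and written 5′ to 3′ along the gene. Zbtb43 lies at chr2:33468533-33468782 on the minus strand, Zbtb6 at chr2:37430920-37431169 on the minus strand, and Ehmt2 at chr17:34898224-34898473 on the plus strand, the first of 2 starts listed. Capitals mark matches on either strand to TGACGTCA, TGANTCA or CACGTG, sequences that are bound by CREB, AP-1 and E-box factors.
Zbtb43: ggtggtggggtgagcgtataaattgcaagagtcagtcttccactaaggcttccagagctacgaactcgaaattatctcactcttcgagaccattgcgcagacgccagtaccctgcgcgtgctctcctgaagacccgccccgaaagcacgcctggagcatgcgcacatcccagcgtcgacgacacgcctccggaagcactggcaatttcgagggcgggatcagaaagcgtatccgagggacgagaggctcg
Zbtb6: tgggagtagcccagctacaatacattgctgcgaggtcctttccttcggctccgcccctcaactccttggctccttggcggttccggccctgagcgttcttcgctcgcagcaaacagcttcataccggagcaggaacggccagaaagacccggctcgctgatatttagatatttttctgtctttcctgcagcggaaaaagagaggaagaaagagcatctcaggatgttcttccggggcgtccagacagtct
Ehmt2: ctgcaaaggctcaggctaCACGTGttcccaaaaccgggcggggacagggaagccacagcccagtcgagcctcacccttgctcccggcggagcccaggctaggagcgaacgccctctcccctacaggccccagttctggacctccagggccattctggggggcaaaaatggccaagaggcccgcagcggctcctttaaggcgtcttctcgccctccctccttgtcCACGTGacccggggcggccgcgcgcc
Ehmt2 held CACGTG at 232 and at 26 bases before its start, and the windows of Zbtb43 and Zbtb6 held none of the 3 motifs. Of the 95 members 77 were in the promoter table, with 108 promoters. TGACGTCA was in 1.85% of these and 1.55% of all 32851 promoters, TGANTCA in 5.56% and 6.75%, and CACGTG in 8.33% and 6.02%, all counted in the same 250 bases before the start. The median count of CG dinucleotides was 19.5 for members and 6 for all promoters. These matches are a description of letters and not of binding.

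The 2F experiment, whose arrays are not shared with the 30 min one, gave similar values. With 60 min of label, 36 of 71 members were higher and 4 lower in newly transcribed RNA, where 24% of 16205 probe sets were higher and 21.8% lower. Of the 40 members called, 4 had 1 group averaging below 32, and all 4 were still called with the raised values. They were Zbtb10, Zbtb39, Zbtb48 and Zbtb7b, with total RNA averaging 20.8, 27.8, 23.6 and 24.7. These 4 were tested through their newly transcribed arrays, and they count among the higher Zbtb genes below. The median was 1.01 for the members and 0.04 for all probe sets. By subfamily 20 of 27 Zbtb, 5 of 8 Kmt, 6 of 15 Kdm, 2 of 4 Prdm and 2 of 7 Setd genes were higher, and 3 of 7 Hdac genes were lower. Of 70 members tested in both experiments, 24 were higher in both, which is 85.7% of the 28 at 30 min and 68.6% of the 35 at 60 min. All 4 members lower at 60 min (Ehmt2, Hdac1, Hdac3 and Hdac6) were among the 7 lower at 30 min. Changes in the 2 experiments correlated across these genes with Spearman's rho of 0.88, over genes that share the same arrays and so are not independent. The shared counts and this correlation were not computed over all probe sets. Prdm2 had 697, 704 and 886 in newly transcribed RNA, against 116, 88.6 and 98.9 in total RNA, a change of 2.91 ± 0.14 (adjusted p = 1.7e-07). Zbtb7a had 572, 416 and 448, against 72.5, 46.5 and 89.2 in total RNA, a change of 2.82 ± 0.23 (adjusted p = 3.2e-06). Ehmt2 had 527, 514 and 473, against 1270, 1341 and 1257 in total RNA, a change of -1.35 ± 0.09 (adjusted p = 8.4e-07), here with no overlap. Hdac3 had 169, 184 and 194, against 429, 432 and 417 in total RNA, a change of -1.23 ± 0.09 (adjusted p = 1.7e-06). In each of these genes the newly transcribed and total arrays stood apart.

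In the first 60 min experiment, 29 of 67 members were higher and 4 lower, where 17.7% of 15411 probe sets were higher and 21.8% lower. Of the 33 members called, 6 had 1 group averaging below 32, and 4 of these were still called with the raised values. Zbtb7a had 1664, 416 and 619 in newly transcribed RNA, against 73.7, 9.79 and 20.8 in total RNA, at least 17.8-fold higher (adjusted p = 5.2e-04), since total RNA replicates 2 and 3 were below 32. The total RNA arrays differed among themselves by more than those of any other group for this gene. Zbtb39 had 409, 230.1 and 154, against 32.5, 15.4 and 16.3 in total RNA, at least 7.59-fold higher (adjusted p = 2.0e-04). Kdm1b, a flavin-dependent relative of Kdm1a, had 8.52, 39.7 and 31.2, against 78.5, 117 and 93.3 in total RNA, at least 2.77-fold lower (adjusted p = 0.0071). Hdac1 had 348, 357 and 396, against 887, 994 and 915 in total RNA (-1.34 ± 0.21, adjusted p = 8.2e-04). Of the other 6 Hdac genes tested none was called lower, Hdac4 was higher (2.99, at least 3.13-fold), and Hdac2 (-0.74), Hdac3 (-0.28), Hdac5 (0.05), Hdac6 (-0.83) and Hdac7 (0.76) were not called. The count of members lower was 2 without newly transcribed replicate 2 or without total RNA replicate 3. Set against the enrichment at 30 min, that at 60 min was higher for 9 and lower for 4 of 71 members by an interaction term, where 8.28% of 15933 probe sets were higher and 10.5% lower. With a replicate block both counts were 0, and leaving out 1 array at a time gave 1 to 14 higher and 0 to 8 lower.

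**Figure D3:**
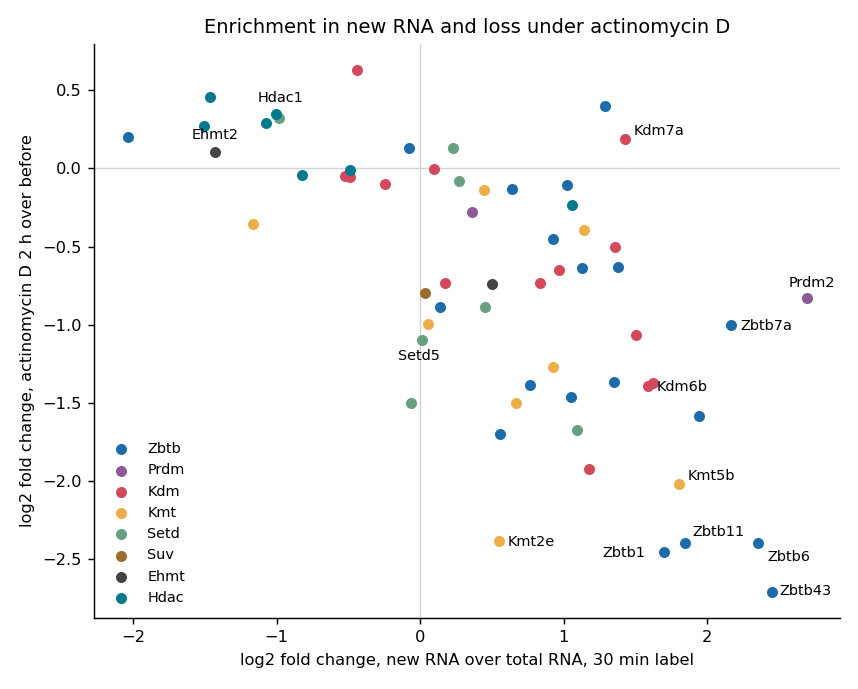
Log2 change over 2 h of actinomycin D (vertical) against log2 enrichment in newly transcribed over total RNA at 30 min (horizontal) for the 60 members tested in both. Each point is 1 gene coloured by subfamily. Genes with high enrichment lie lower on the vertical axis, with a Spearman's rho of -0.65.

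The 2 measures come from separate arrays and can be set side by side. Of the 60 members tested in both, 21 fell over 2 h of actinomycin D and 23 were enriched at 30 min, and 14 did both, which is 66.7% of those that fell and 60.9% of those enriched. Pearson's r across genes was -0.65, on arrays that all genes share, so the genes are not independent points. The 14 comprised 8 Zbtb genes, with Kdm3a, Kdm5b, Kdm6a, Kdm6b, Kmt5b and Setd2. Those that fell without being enriched at 30 min were Kmt2b, Kmt2c, Kmt2e, Setd1b, Setd5, Zbtb25 and Zbtb33. Of these, Kmt2b (1.61), Kmt2e (1.14) and Zbtb25 (1.13) were higher in newly transcribed RNA of the 2F experiment. With that experiment in place of the 30 min one, 17 of the 21 that fell were enriched, which is 81.0% of them and 63.0% of the 27 enriched. Neither the shared counts nor the correlation was computed over all probe sets, so they are not shown to be particular to these members.

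Pre-existing RNA was compared with total RNA of the first 60 min experiment. Of 67 members, 5 were lower and none of the 67 higher, where 6.96% of 15411 probe sets were lower and 1.87% higher, so the share lower was near that of all probe sets. The fit with a replicate block, which pairs arrays of the same number, gave 9 lower and 2 higher. At an unadjusted p below 0.05, 14 were lower and 6 higher, but all probe sets were not counted at that level. Zbtb34 had 31.0, 31.1 and 28.9 in pre-existing RNA, against 78.3, 120 and 77.8 in total RNA (-1.57 ± 0.26, adjusted p = 0.0030, at least 2.81-fold lower). Zbtb11 had 107, 121 and 135, against 233, 557 and 445 in total RNA (-1.68 ± 0.46, adjusted p = 0.049). Neither gene's groups overlapped. The count was 1 to 3 without any 1 of pre-existing replicates 1, 2 and 3 or total RNA replicates 2 and 3, and 6 members were higher without total RNA replicate 1. At an unadjusted p below 0.05, 26 members were lower and 3 higher against total RNA of the 2F experiment, with all probe sets not counted. By limma's calls in this comparison, added after the data were seen, 9 of 71 members were lower and none higher. Of 15786 probe sets, 7.05% were lower and 0.0443% higher. Of these 9, 7 were Zbtb genes, and with the raised values 7 members were called, without Zbtb26 (-0.10) and Zbtb39. Zbtb43 had 24.9, 35.2 and 33.6 in pre-existing RNA, against 99.0, 98.5 and 86.1 in total RNA (-1.61 ± 0.14, adjusted p = 1.8e-05, at least 2.81-fold lower). Kdm6b had 109, 105 and 117, against 386, 280.1 and 313 in total RNA (-1.55 ± 0.14, adjusted p = 1.8e-05). The 2 groups stood apart for both genes. Comparisons within an experiment share their total RNA arrays.

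Label times were compared within newly transcribed RNA. At 15 min against 30 min, 7 of 72 members were lower and none of the 72 higher, where 7.29% of 16163 probe sets were lower and 9.7% higher, so the share lower was again near that of all probe sets. At an unadjusted p below 0.05, 23 were lower and 0 higher, but all probe sets were not counted at that level. The 7 were 5 Zbtb genes, Kdm6b and Setd5, and median changes were -0.71 for Zbtb, -0.42 for all members and -0.18 for all probe sets. Kdm6b had 249, 252 and 241 at 15 min, 460 to 1518 at 30 min (median 620.3), and 5874, 1357 and 1110 at 60 min. Its arrays at 15 min lay below all others and the change was -1.62 ± 0.46 (adjusted p = 0.012), while at 60 min against 30 min it was 1.44 ± 0.46 (adjusted p = 0.024) with 1 array at 60 min far above the rest. Zbtb2 had 74.2, 82.2 and 87.2 at 15 min, 177 to 248 at 30 min (median 210), and 433, 399 and 386 at 60 min. The 3 times did not overlap, with -1.35 ± 0.15 at 15 min (adjusted p = 3.9e-05) and 0.97 ± 0.15 at 60 min, just below 2-fold. Zbtb21 gave 109, 102 and 98.5 at 15 min, 181 to 289 at 30 min (median 262), and 641, 351 and 400 at 60 min, again without overlap. Its change at 15 min was -1.27 ± 0.19 (adjusted p = 2.2e-04). Prdm2 showed 886, 740 and 928 at 15 min, 724 to 896 at 30 min and 1133, 826 and 926 at 60 min, with overlap and changes of 0.08 and 0.25. The 15 min and 30 min groups also differ in the word mock in their titles, whose part in these values was not tested.

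**Figure D4:**
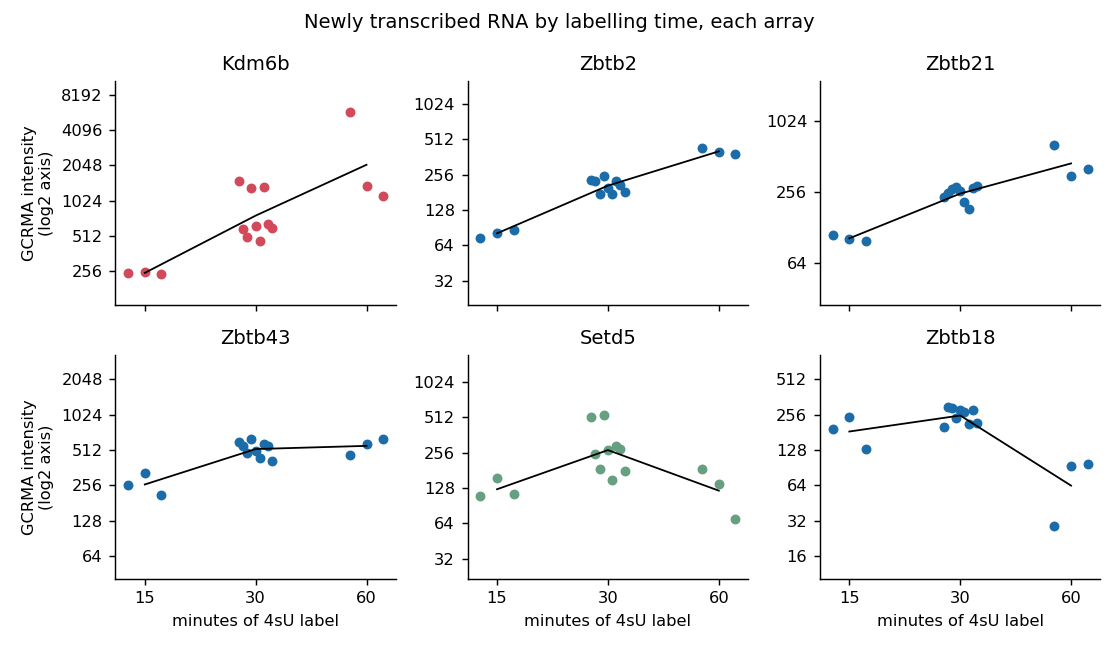
Intensity in newly transcribed RNA of 6 members against minutes of 4sU label, on a log2 axis that spans the same number of doublings in each panel. Points are single arrays (3 at 15 min, 9 at 30 min and 3 at 60 min of the first experiment), and lines join geometric means. Zbtb2 and Zbtb21 step up at each time, Kdm6b has 1 array of 5874 at 60 min, and Zbtb18 is lowest at 60 min.

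At 60 min against 30 min, 5 of 72 members were lower and 3 higher, where 12.1% of 16163 probe sets were lower and 4.9% higher, and the replicate block gave 2 lower and 0 higher. Zbtb18, a repressor of neuronal genes, had 28.5, 93.7 and 96.4 at 60 min, against 201 to 296 at 30 min (median 270.1). It was lower on every array, with a change of -1.99 ± 0.30 (adjusted p = 1.9e-04). Kdm1b had 8.52, 39.7 and 31.2, against 26.6 to 74.2 at 30 min (median 53.6), with overlap and -1.30 ± 0.37 (adjusted p = 0.013), not called with the raised values (-0.68). Zbtb7a had 1664, 416 and 619, against 141 to 481 (median 357), with overlap and 1.30 ± 0.44 (adjusted p = 0.031). The higher count was 0 without newly transcribed replicate 1 at 60 min, the array with the highest values of Kdm6b and Zbtb7a, and 6 and 5 without replicates 2 and 3. The label dose was 200 µM at 60 min and 500 µM at 30 min, so time and dose cannot be told apart.

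Total RNA of labelled cells was compared with that of cells before treatment. At 30 min of label 1 of 67 members was lower and none higher, where 0.117% of 15365 probe sets were lower and 0.384% higher. At an unadjusted p below 0.05, 6 were lower and 10 higher, but all probe sets were not counted at that level. The lower member was Suv39h2, with 33.3 to 65.3 at 30 min (median 52.4), against 67.2, 122 and 133 before. The groups did not overlap, but the change of -1.20 ± 0.25 (adjusted p = 0.037) was not called without replicate 2 or 3 of the arrays before (adjusted p = 0.28 and 0.34) or with a replicate block (adjusted p = 0.38). At 60 min 7 of 67 members were lower and none higher, where 3.67% of 15365 probe sets were lower and 2.92% higher, and a replicate block gave 1 higher. At an unadjusted p below 0.05, 16 were lower and 7 higher, but all probe sets were not counted at that level. Hdac3 had 253, 85.3 and 299, against 345, 537 and 536 before, without overlap (-1.32 ± 0.35, adjusted p = 0.029). Zbtb18 had 112, 113 and 94.3, against 183, 231 and 231 before, also without overlap (-1.01 ± 0.20, adjusted p = 0.0071). Hdac4 had 31.8, 5.23 and 12.1, against 43.3, 68.2 and 59.4 before (-2.15 ± 0.46, adjusted p = 0.0095), where replicates 2 and 3 were the lowest, and it was not called with the raised values (-0.81). The lower count was 13 without total RNA replicate 1 of the 60 min arrays, 4 without replicate 2, 2 without replicate 3 of the arrays before, and 3 with the raised values. In total RNA of the 2F experiment, the same genes had 429, 432 and 417 for Hdac3, 140.3, 131 and 139 for Zbtb18, and 72.6, 62.1 and 62.0 for Hdac4.

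Half-lives follow from the share of new RNA after 60 min, after scaling so that the labelled and unlabelled fractions sum to the total across probe sets, and assume constant total RNA during labelling. In the first 60 min experiment the line that sets this scale explained 0.776% of the variance over 9047 probe sets, the median of 36 members was 889 min, and 1 replicate alone gave no value, so those half-lives are not described gene by gene. With newly transcribed and total RNA of the 2F experiment, a choice made after the data were seen, the line explained 40.1% over 9530 probe sets. Pre-existing RNA carries no 2F in its title, so this scale joins arrays that the labels do not place in 1 experiment. The median half-life was then 2.64 h for 41 members and 5.76 h for all probe sets. It was 1.69 h for 11 Zbtb, 2.13 h for 6 Kmt, 2.52 h for 11 Kdm, 3.90 h for 6 Setd, 8.10 h for 2 Ehmt and 10.3 h for 4 Hdac genes. The members' median was 118, 200 and 212 min with each replicate alone (SD 51.2), and 153 to 181 min with each array left out. In the first 60 min experiment the pre-existing fraction gave a median of 78.5 min, against 889 min from the new fraction. These 41 genes passed a mean log2 of 7, an intensity of 128, and do not stand for all members. Zbtb43, Zbtb34, Zbtb20, Zbtb6 and Kmt2a have no estimate, although their mean log2 over newly transcribed and total 2F arrays was 7.07 to 7.71. Pre-existing RNA of Zbtb43, Zbtb34 and Zbtb6 averaged 30.9, 30.3 and 31.4. They were enriched 4.92-, 4.23- and 3.55-fold in newly transcribed RNA of the 2F experiment, so the Zbtb median leaves out strongly enriched genes.

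Prdm2 had the shortest estimate, 0.244 h with an upper 95% bound of 0.485 h and no lower bound, followed by Zbtb7a at 0.320 h (upper bound 0.718 h). The actinomycin D arrays did not show losses of that size: over 2 h Prdm2 changed by -0.83 and Zbtb7a by -1.0, and between 1 h and 2 h Prdm2 changed by 0.35 ± 0.16 (adjusted p = 0.11). Zbtb1 was at 0.935 h (0.653 to 1.28 h), Kdm6b at 0.987 h (0.689 to 1.35 h), Kmt5b at 0.988 h (0.797 to 1.20 h) and Zbtb11 at 1.29 h (1.05 to 1.57 h). Their intervals overlapped, so no order among them is given. Setd2 was at 2.01 h (1.69 to 2.36 h) and Kmt2e at 2.16 h (1.81 to 2.56 h). Ehmt1 at 2.39 h (2.00 to 2.84 h) and Ehmt2 at 13.8 h (12.0 to 15.9 h) had intervals far apart, although the proteins form 1 complex. Hdac2 at 8.70 h (7.04 to 10.7 h), Hdac1 at 11.8 h (10.3 to 13.6 h) and Hdac3 at 12.6 h (10.9 to 14.6 h) were above the median of all probe sets. Hdac7 at 5.20 h (4.23 to 6.37 h) was the shortest of the 4 Hdac genes. Among the Kdm genes estimates ran from 0.984 h for Kdm2a to 5.74 h for Kdm5c, with Kdm1a at 4.89 h (4.21 to 5.69 h). Setd3 at 10.4 h (9.06 to 11.9 h) stood apart from Setd7 at 4.25 h (3.68 to 4.90 h). The intervals come from the newly transcribed to total RNA ratio alone and leave out the error of the scale.

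**Figure D5:**
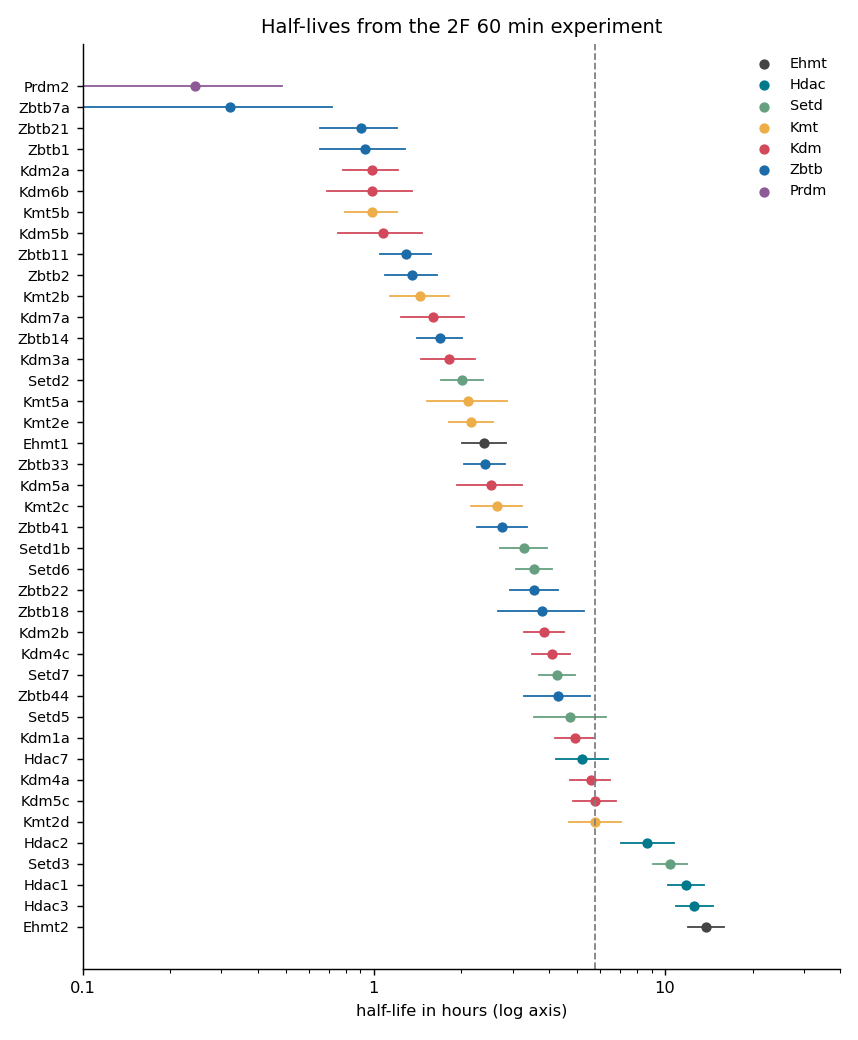
Half-life in hours (log axis) of 41 members from the 2F 60 min experiment, sorted, with 95% intervals as horizontal lines and colours by subfamily. The dashed line is the median of all probe sets, 5.76 h, and lines that reach the left edge have no lower bound. Prdm2 and Zbtb7a lie at the short end, and Hdac1, Hdac2, Hdac3, Setd3 and Ehmt2 at the long end. Zbtb43, Zbtb34, Zbtb20, Zbtb6 and Kmt2a have no estimate and are not drawn.

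Some members are neighbours in the genome, with 5 pairs within 50 kb on GRCm38.p6. Zbtb34 and Zbtb43, on chromosome 2 and 18.963 kb apart, both fell over 2 h of actinomycin D (-1.59 and -2.71) and were both higher in newly transcribed RNA at 30 min (1.94 and 2.45). Zbtb6 and Zbtb26, on chromosome 2 and 1.249 kb apart, were both higher at 30 min (2.36 and 1.95). Zbtb25 and Zbtb1, on chromosome 12, overlap by 163 bases and both fell with actinomycin D (-1.70 and -2.46), while at 30 min Zbtb25 was not called and Zbtb1 was higher (0.56 and 1.70). Zbtb12 and Ehmt2, on chromosome 17 and 1.596 kb apart, were both lower at 30 min (-2.04 and -1.43), while in the 2F experiment Zbtb12 was not called and Ehmt2 was lower (-0.92 and -1.35). Zbtb11 overlaps Zbtb11os1, an RNA from the opposite strand that was too dim to test. The strand of these arrays' probes was not examined, so overlapping pairs may share signal.

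Other chromatin genes, from lists written from general knowledge, were read in the same way. Over 2 h of actinomycin D, 2 of 33 Polycomb and other methyltransferase genes fell, as did 2 of 10 other demethylase and DNA methylation genes, 4 of 22 genes of deacetylase complexes and sirtuins, 8 of 19 acetyltransferase genes and 4 of 6 other BTB zinc-finger genes, and none of these lists had a gene that rose. Of all probe sets, 9.42% fell and 0.538% rose, so the share of the Polycomb list that fell was below that of all probe sets. At 30 min of label, newly transcribed RNA was higher for 5, 7, 2, 6 and 3 genes of these lists and lower for 10, 1, 8, 3 and 0, out of 39, 13, 21, 19 and 7 tested. Of all probe sets, 23.7% were higher and 25.6% lower, and the Polycomb list's share lower was near the latter. Among the BTB zinc-finger genes outside the Zbtb symbols was Bcl6, a repressor of transcription in germinal-centre B cells. It fell by 3.15 ± 0.14 on the log2 scale with actinomycin D (adjusted p = 2.7e-07). In newly transcribed RNA at 30 min it was higher by 2.44 ± 0.17 (adjusted p = 4.6e-11). Among the partners of the deacetylases, Sin3a fell by 1.94 ± 0.18 with actinomycin D (adjusted p = 3.0e-05), and Sin3b was lower in newly transcribed RNA (-1.99 ± 0.10, adjusted p = 8.7e-13).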

How the data were processed

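RNA of 45 samples in 11 groups was hybridised to Affymetrix arrays after Trizol extraction and one-cycle labelling, per the labels. The authors deposited linear GCRMA intensities, per the submitters' processing notes, which give no version, and their log2 was taken here. Control probe sets (61 of 31451) were left out. Of the rest 25031 had 1 gene symbol, 690 several and 5669 none, and Entrez identifiers matched 24934 to RefSeq and changed 0 symbols.

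Groups came from titles. Limma 3.58.1 in R 4.3.3 was fitted over all probe sets whose mean log2 reached 5, with group as the only factor, and tested on simulated data. Array number limits the precision, and array medians ranged from 22.8 to 40.25. Same-numbered arrays deviated together, with every pair over 0.1, in actinomycin D against before (0.143 to 0.588 at 1 h and 2 h). The same held in comparisons with the first 60 min experiment (0.122 to 0.404). In these comparisons replicate numbers therefore pair arrays from the data and not from the labels. Between 1 h and 2 h of actinomycin D the lowest pair was at 0.084. The members and gene lists were chosen with earlier results of these data known. Any member could be named, and values array by array follow the highest mean of each subfamily and the largest called changes of each comparison. Proteins were not analysed here.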

Additional observations from a re-analysis of the deposited data

Results flagged for a closer look

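In groups of 9 arrays, 8 of 142 combinations of member and group held a single array far from the rest, and chance alone would give about 1 in 20. In newly transcribed RNA at 30 min these were Ehmt2 in replicate 7 (661.2, next 479.9), Hdac5 in replicate 7 (13.57, next 29.34), Kdm1b in replicate 4 (26.57, next 50.26), Kdm4a in replicate 9 (44.92, next 84.01), Setd1a in replicate 4 (281.35, next 145.63) and Zbtb10 in replicate 1 (38.95, next 56.01). In total RNA at 30 min they were Zbtb2 in replicate 7 (44.88, next 75.74) and Zbtb24 in replicate 4 (21.38, next 36.69).

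The log2 enrichment in newly transcribed over total RNA differed between 60 min in the first experiment and 30 min for 13 members by limma's interaction term. It was higher at 60 min for Zbtb7a (2.77 ± 0.67), Hdac4 (1.93 ± 0.52), Kdm2a (1.64 ± 0.58), Hdac7 (1.59 ± 0.51), Zbtb17 (1.33 ± 0.24), Kmt5c (1.31 ± 0.45), Zbtb48 (1.25 ± 0.43), Kmt2b (1.12 ± 0.32) and Kdm4b (1.08 ± 0.39). It was lower for Kdm1b (-1.68 ± 0.52), Zbtb20 (-1.44 ± 0.46), Zbtb18 (-1.38 ± 0.36) and Zbtb11 (-1.35 ± 0.46). With intensities below 32 raised to 32, Hdac4 (0.58), Kmt5c (0.73), Zbtb48 (0.89) and Kdm4b (0.95) were not called. With a replicate block no member was called, and leaving out 1 array at a time gave 1 to 14 higher and 0 to 8 lower. Of all probe sets, 8.28% were higher and 10.5% lower. The experiments differ in label dose and time, which cannot be told apart.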

How the results depend on the processing

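The members called below are given as counts, beside the main count in brackets. With a mean log2 of 7 or more, which tests fewer genes, actinomycin D gave 1 lower (7) and 0 higher (1) at 1 h, 4 lower (21) and 0 higher (1) at 2 h, and 3 lower (10) and 0 higher (1) between these times. Newly transcribed against total RNA then gave 19 higher (29) and 3 lower (7) at 30 min, 22 higher (36) in the 2F experiment and 14 higher (29) at 60 min. The difference of enrichment gave 4 higher (9) and 2 lower (4), newly transcribed RNA at 60 min against 30 min 3 lower (5), pre-existing RNA 1 lower (5) and, with 2F total RNA, 3 lower (9), and total RNA 0 lower (1) at 30 min and 2 lower (7) at 60 min. The mean of a gene's probe sets gave 2 lower (7) at 1 h and 11 lower (21) at 2 h of actinomycin D. It gave 5 higher (9) for the difference of enrichment, 2 lower (7) at 15 min and 0 higher (3) at 60 min against 30 min. It also gave 19 higher (29) for the first 60 min enrichment and 4 lower (9) for pre-existing RNA with 2F total RNA. For total RNA it gave 0 lower (1) at 30 min and 1 higher (0) at 60 min. With no filter on dim probe sets there were 3 higher (1) between 1 h and 2 h of actinomycin D, 2 lower (4) in the first 60 min enrichment, 2 higher (0) in pre-existing RNA and 0 lower (1) in total RNA at 30 min. An offset of 16 gave 0 higher at 2 h of actinomycin D, 3 lower at 60 min against 30 min, 5 lower (9) for pre-existing RNA with 2F total RNA, 1 higher (0) in pre-existing RNA and 0 lower in total RNA at 30 min. Quantile normalization gave 5 higher (3) at 60 min against 30 min and 7 lower (4) in the 2F enrichment, and moved the median of all probe sets for pre-existing RNA by -0.10. The replicate block gave 0 higher and 0 lower for the difference of enrichment, 0 higher and 2 lower at 60 min against 30 min, 2 higher and 9 lower in pre-existing RNA, 0 lower in total RNA at 30 min and 1 higher in total RNA at 60 min, and moved no other count of members by over 1.5 times. Of the settings added after the data were seen, raising intensities below 32 to 32 gave 0 higher (1) at 2 h of actinomycin D and 3 lower (7) in total RNA at 60 min, and leaving out newly transcribed 30 min arrays 1, 4 and 7 gave 9 lower (4) for the difference of enrichment and 5 higher (3) at 60 min against 30 min.

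The median half-life of members was 158.6 min with the 2F arrays. In the first 60 min experiment it was 889 min, 78.5 min from the pre-existing fraction and 675 min at a mean log2 of 6 or more. Leaving out 1 array at a time gave 296 to 4234 min, and without total RNA replicate 1 no value. Such ranges for members were 1 to 2 higher between 1 h and 2 h of actinomycin D, 0 to 1 higher and 19 to 21 lower at 2 h against before, 1 to 14 higher and 0 to 8 lower for the difference of enrichment, 0 to 6 higher and 3 to 6 lower at 60 min against 30 min, 2 to 5 lower in the first 60 min enrichment, 0 to 6 higher and 1 to 6 lower in pre-existing RNA, 0 to 1 lower in total RNA at 30 min, and 0 to 4 higher and 2 to 13 lower in total RNA at 60 min. The array whose absence gave 14 higher was total RNA replicate 1 of the first 60 min experiment, and that with 1 higher and 0 lower was newly transcribed replicate 1. Of the single genes named, 1949 values under all alternatives had the same direction and call, 293 lacked the call, and 1 turned sign, Kdm2a for the difference of enrichment with the mean of its probe sets (-0.082). The cause of these shifts was not tested.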
